A study of Homo sapiens with 9 samples.

Results

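CYP24A1 encodes the mitochondrial cytochrome P450 that inactivates vitamin D, and it was described here together with the vitamin D receptor axis in SKOV3, a long-established line of human ovarian cancer cells. The axis comprised 6 genes taken by name from a table of 32378 genes: CYP24A1, the receptor gene VDR, its partner genes RXRA and RXRB, and the activating enzyme genes CYP27B1 and CYP2R1. All 6 were among the 16450 genes that passed the filter on low counts. CYP24A1 was selected on its measured values, a large difference between Carbo and control libraries and between replicate numbers. Its differences are therefore given as a description without a test. The other 5 genes were taken for their place in the pathway.

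RNA was sequenced in 9 libraries, 3 each of SKOV3 cells given Carbo and COM33 together (Carbo+COM33), of cells given Carbo alone, and of control cells. The series title identifies Carbo as carboplatin, a DNA-crosslinking platinum compound, whereas COM33 is a code name. All groups were the same cell line grown in medium with serum, no group received COM33 alone, and the labels give neither doses nor times. The labels do not say whether replicate numbers mark separate cultures, so p-values measure only the spread between these libraries, which may be technical.

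Active vitamin D, calcitriol, binds VDR, which pairs with a retinoid X receptor and binds DNA at paired short hexamers near target genes. CYP2R1 carries out the first activating hydroxylation of vitamin D and CYP27B1 the second, while CYP24A1 degrades both the intermediate and the active hormone. CYP24A1 is itself a classic target of liganded VDR.

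Totals were 13851760 to 15533668 counts per library. Levels within a gene are in CPM, read counts relative to the scaled library size, or in FPKM, which also divides by gene length and allows comparison between genes. Among markers of the line, ERBB2 averaged 206 FPKM, PAX8 53.7 FPKM and KRT8 53.4 FPKM over the 9 libraries, whereas WT1 averaged 0.425 FPKM and MUC16 0.0431 FPKM. The 14 markers of blood, endothelial, liver, muscle, nerve and cartilage cells together had 59 to 88 counts in Carbo+COM33 libraries, 58 to 103 in Carbo libraries and 92 to 128 in control libraries. The part of these few counts in the results was not tested. In bulk RNA, fewer cells expressing a gene and less RNA per cell cannot be told apart.

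CYP24A1 (ENSG00000019186, GRCh38 chromosome 20, 54153449 to 54173973, minus strand) was low in every Carbo+COM33 library and spread widely in the other groups. Its level was 3.36, 3.99 and 4.11 FPKM in Carbo+COM33 libraries 1 to 3. It was 5.31, 33.0 and 59.6 FPKM in Carbo libraries 1 to 3. It was 3.55, 12.9 and 15.5 FPKM in control libraries 1 to 3. Libraries 2 and 3 were thus the high ones in both the Carbo and the control group, and replicate 1 of each lay near the Carbo+COM33 libraries. The counts behind these values were 185, 230 and 238 in Carbo+COM33 libraries, 312, 2034 and 3397 in Carbo libraries, and 204, 761 and 895 in control libraries. Counting error was therefore small beside the spread between libraries within Carbo and within control.

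**Figure D1:**
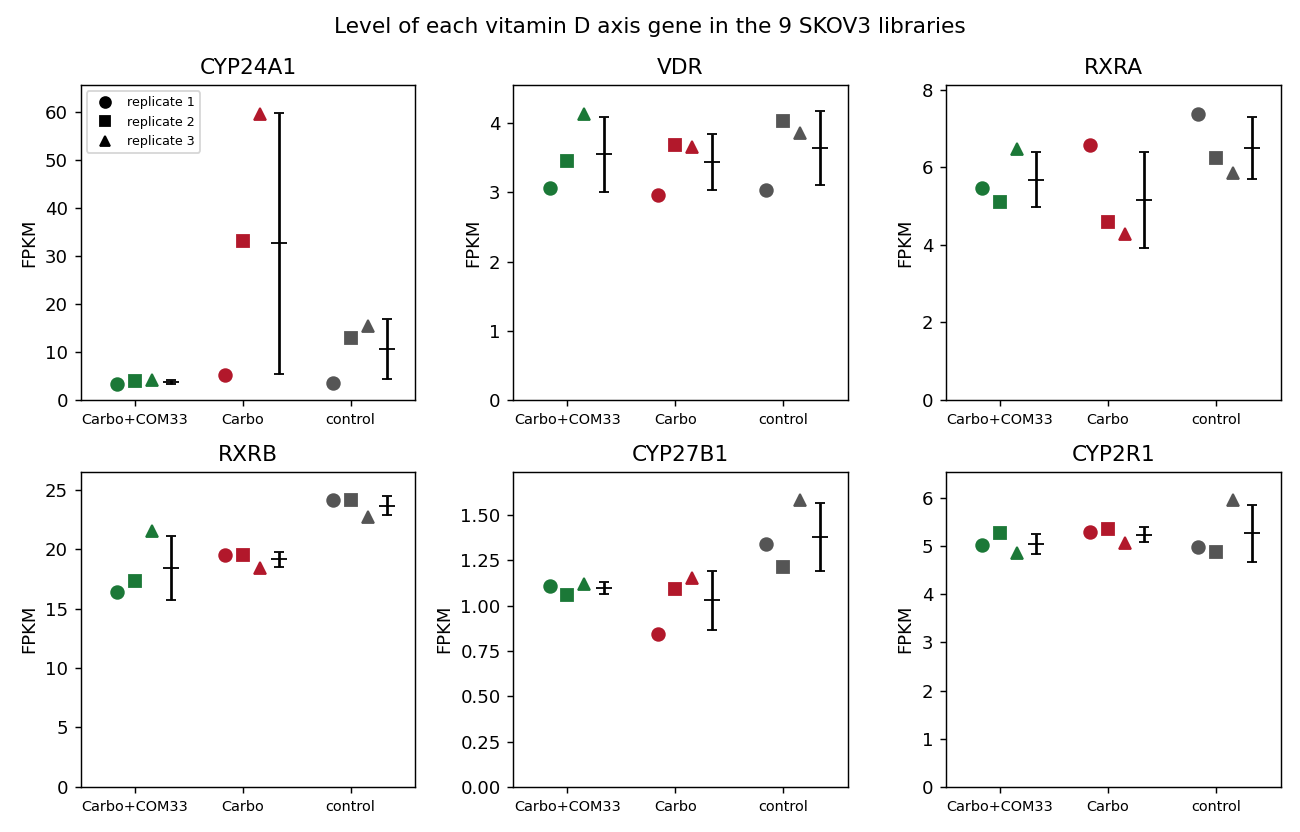
FPKM (linear axes from 0) of the 6 genes in the 9 libraries, with marker shape giving the replicate number and the black bar the mean ± SD of 3 libraries. CYP24A1 ran from 3.36 to 4.11 FPKM in Carbo+COM33, from 5.31 to 59.6 FPKM in Carbo and from 3.55 to 15.5 FPKM in control, while VDR stayed between 2.97 and 4.14 FPKM.

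As group means, CYP24A1 averaged 3.82 ± 0.401 FPKM in Carbo+COM33, 32.6 ± 27.1 FPKM in Carbo and 10.6 ± 6.29 FPKM in control (SD, n = 3 each). The Carbo+COM33 libraries were below every Carbo library, as groups that do not overlap were for 23.7% of all genes in that comparison, with a fitted log2 fold change of -3.07 (SE 0.675), which is 8.38-fold lower. Against control the log2 fold change of Carbo+COM33 was -1.45 (SE 0.667), and the groups overlapped because control 1 lay among the Carbo+COM33 libraries. For Carbo against control it was 1.62 (SE 0.621), again with overlapping groups. Each SE was computed back from the test statistic of the fit. CYP24A1 was selected on its values, so its SE is a description and no support.

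Single libraries set much of these sizes. Leaving out 1 library, the log2 fold change of Carbo+COM33 against Carbo was -3.57 without Carbo 1 and -2.29 without Carbo 3. For Carbo against control it was 2.12 without Carbo 1 and 0.841 without Carbo 3. The sign was the same whichever library was left out.

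The gap to Carbo+COM33 differed by replicate number. Carbo+COM33 over Carbo gave CPM ratios of 0.649, 0.124 and 0.0696 for libraries numbered 1, 2 and 3. Carbo+COM33 over control gave 0.963, 0.317 and 0.269. These ratios describe the libraries only, since replicate numbers did not pair Carbo+COM33 libraries with those of the other groups.

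Replicate numbers did pair the Carbo with the control libraries across genes. Within these pairs CYP24A1 was higher in Carbo each time, with CPM ratios of 1.48, 2.55 and 3.87 in pairs 1, 2 and 3. The paired fit gave a log2 fold change of 1.46, and 1.42 after correction of every library for GC content and gene length. The ratio was smallest in the pair in which both libraries were low.

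Few genes varied as much between replicates. CYP24A1 was selected partly on this difference between replicate numbers, so its ranks are a description only. In the 10580 genes whose mean log2 CPM exceeded 3, CYP24A1 had the highest SD of log2 CPM of all genes over the Carbo libraries, 1.82, where the median gene had 0.13. Over the control libraries it ranked 2 at 1.14, against a median of 0.106. Over the Carbo+COM33 libraries its SD was 0.148, with 64.2% of genes lower and a median of 0.117. Its highest and lowest values differed 11.3-fold within Carbo and 4.33-fold within control, but 1.21-fold within Carbo+COM33.

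**Figure D2:**
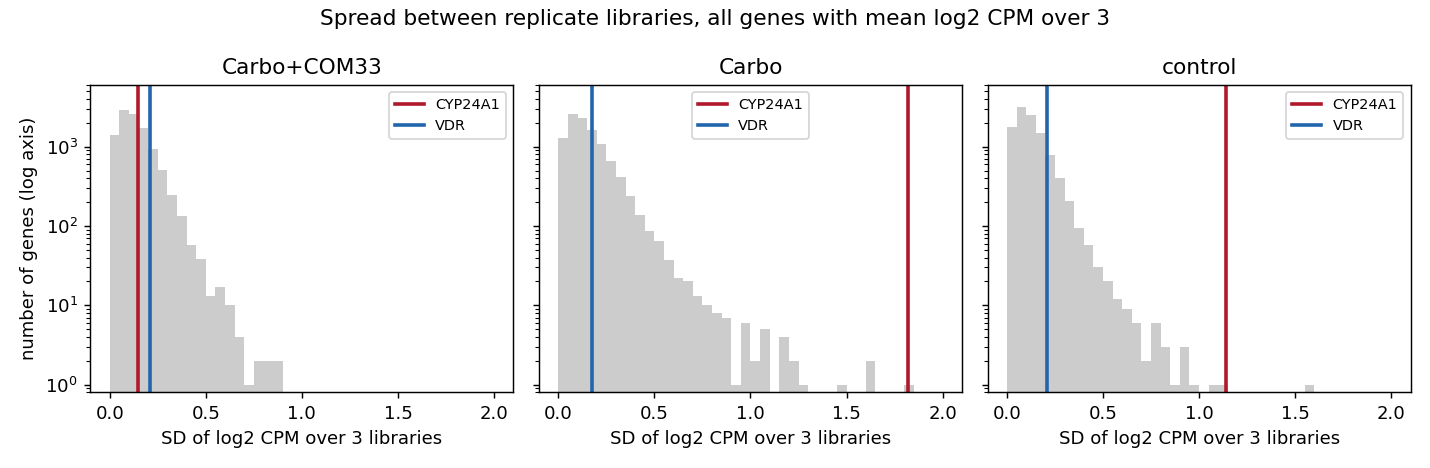
Histograms of the SD of log2 CPM over the 3 libraries of each group, for all genes whose mean log2 CPM exceeded 3 (log vertical axis, number of genes), with vertical lines at CYP24A1 and VDR. The CYP24A1 line lies at 0.148 in Carbo+COM33, at 1.82 in Carbo and at 1.14 in control, whereas VDR lies between 0.176 and 0.211.

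None of the 5 genes other than CYP24A1 was called in the comparisons with Carbo+COM33. A gene is called when edgeR's quasi-likelihood p, adjusted over all tested genes by the Benjamini-Hochberg method, is under 0.05. In Carbo+COM33 against Carbo 0 of the 5 were called, where 4.96% of all tested genes were. In Carbo+COM33 against control 0 of the 5 were called, where 6.29% of all genes were. At such shares a count of 0 among 5 genes is no result about them.

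In Carbo against control the unpaired fit called 0 of the 5 and 0.0% of all genes, although 2748 genes had an unadjusted p under 0.05 and DESeq2 called 115. The paired fit of the 6 Carbo and control libraries called 22.7% of all genes, and among the 5 it called RXRA and RXRB, both lower in Carbo. With the replicate number as a block over all 9 libraries, 0 genes were called. With the GC and length correction the paired fit called 10.3% of all genes, 5.63% higher and 4.7% lower, and 0 of the 5.

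**Figure D3:**
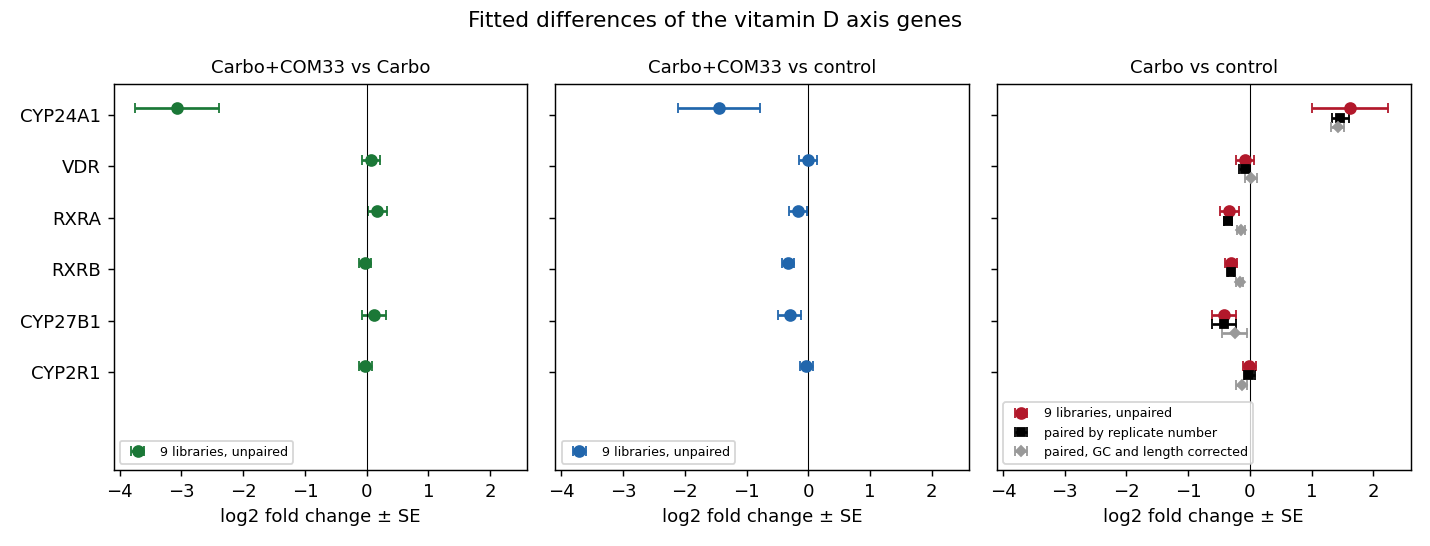
Fitted log2 fold changes ± SE of the 6 genes in the 3 comparisons, with the paired fits added for Carbo vs control. CYP24A1 lies at -3.07, -1.45 and 1.62, while every unpaired value of the other genes lies between -0.42 and 0.17. The SE of CYP24A1 is a description only.

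VDR (ENSG00000111424, chromosome 12, 47841537 to 47943048), the receptor of active vitamin D, was at a similar level in all groups. It had 3.07, 3.45 and 4.14 FPKM in Carbo+COM33 libraries, 2.97, 3.69 and 3.66 FPKM in Carbo libraries, and 3.04, 4.03 and 3.86 FPKM in control libraries. The groups overlapped, and the highest library was 1.42-fold above the lowest, where for CYP24A1 that ratio was 17.4. The lowest VDR value of each group was in its replicate 1.

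VDR had a log2 fold change of 0.076 (SE 0.146, adjusted p = 0.805) for Carbo+COM33 against Carbo. It was -0.0089 (SE 0.145, adjusted p = 0.979) for Carbo+COM33 against control. In Carbo against control it was -0.085 (SE 0.145, adjusted p = 0.791), and -0.086 (adjusted p = 0.55) in the paired fit. Each of these signs turned in some alternative, by scaling or correction in both comparisons with control and by leaving out Carbo 1 (-0.0192) or Carbo+COM33 3 (-0.0462) in Carbo+COM33 against Carbo, so no direction is stated.

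RXRA (ENSG00000186350, chromosome 9, 134317098 to 134440585) encodes a retinoid X receptor, the obligate partner of VDR on DNA. It had 5.46, 5.10 and 6.48 FPKM in Carbo+COM33 libraries, 6.58, 4.60 and 4.28 FPKM in Carbo libraries, and 7.38, 6.24 and 5.86 FPKM in control libraries. Carbo 2 and 3, the libraries with the most CYP24A1, had the least RXRA, and the groups overlapped in each comparison.

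RXRA was lower in Carbo than in control in the paired fit, at a log2 fold change of -0.35 (SE 0.0665, adjusted p = 0.00123). The highest adjusted p without a pair was 0.0299. The paired fit has 2 residual degrees of freedom, and fewer without a pair, so a call kept there says little about stability. With GC and length corrected RXRA was at -0.14 (adjusted p = 0.177), and unpaired it was at -0.34 (SE 0.154, adjusted p = 0.296). The exons of RXRA have a GC content of 61.9%. The log2 fold change was 0.17 (SE 0.154, adjusted p = 0.561) for Carbo+COM33 against Carbo, and it was -0.17 (SE 0.153, adjusted p = 0.543) for Carbo+COM33 against control. Carbo 1 decided the unpaired calls: without it, the values were 0.38 (adjusted p = 0.0463) for Carbo+COM33 against Carbo and -0.55 (adjusted p = 0.0251) for Carbo against control.

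RXRB (ENSG00000204231, chromosome 6, 33193588 to 33200688, minus strand) encodes a second retinoid X receptor and was the partner gene of higher level. Its first 244 bp also lie in SLC39A7 (ENSG00000112473), a zinc transporter gene on the opposite strand. Whether strand was used in counting is not given in the sources used here, so reads from that stretch cannot be told apart. The window around the RXRB start is shown because 2 genes share it; the sequence is from RefSeq on GRCh38.p14, chr6:33200616-33200915, read on the minus strand, and capitals mark the 73 bases that lie in both genes.
RXRB: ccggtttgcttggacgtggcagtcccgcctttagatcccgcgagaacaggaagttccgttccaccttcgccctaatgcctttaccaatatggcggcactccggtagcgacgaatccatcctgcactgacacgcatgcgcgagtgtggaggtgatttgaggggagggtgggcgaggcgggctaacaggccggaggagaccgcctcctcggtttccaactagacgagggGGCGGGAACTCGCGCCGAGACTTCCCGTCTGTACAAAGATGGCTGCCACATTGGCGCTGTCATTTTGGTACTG

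The window has a GC content of 60.0%. Searched on both strands, it holds neither AGGTCA nor GGTTCA, hexamers bound by VDR and retinoid X receptor pairs. AGGTCA occurs in 13.8% of 35116 RefSeq promoter windows of the same length and GGTTCA in 8.62%. The table held 7 windows of members of the axis, 2 of RXRA, 2 of RXRB and 3 of CYP2R1; no window of CYP24A1, VDR or CYP27B1 was searched. Of the 7, 0 hold AGGTCA and 1, of CYP2R1, holds GGTTCA. The direct repeat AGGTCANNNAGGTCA was found in 2 windows of all and in 0 of these 7.

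RXRB had 16.4, 17.3 and 21.5 FPKM in Carbo+COM33 libraries, 19.5, 19.5 and 18.4 FPKM in Carbo libraries, and 24.1, 24.1 and 22.7 FPKM in control libraries. Every treated library was below every control library. Groups that do not overlap were found for 22.5% of all genes in Carbo against control and for 28.7% in Carbo+COM33 against control.

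RXRB was lower in Carbo than in control in the paired fit, at a log2 fold change of -0.31 (SE 0.0532, adjusted p = 0.000603). The highest adjusted p when a pair was left out was 0.0154, in fits with the same limit as for RXRA. RXRB was at -0.16 (adjusted p = 0.0565) with GC and length corrected and at -0.31 (SE 0.0972, adjusted p = 0.226) unpaired. SLC39A7 had a log2 fold change of -0.22 (adjusted p = 0.00502) in the same paired fit. For Carbo+COM33 against control RXRB was at -0.33 (SE 0.0974), just outside the threshold at an adjusted p of 0.0598. RXRB was called there in 2 of 9 fits that left out a library, without Carbo 1 (adjusted p = 0.0391) or Carbo+COM33 3 (0.00629). In the other such fits the adjusted p reached 0.261, without Carbo+COM33 1. By DESeq2 it was 0.0418. With the replicate block in 6 libraries it was 0.0855, and 0.0809 with that block and the GC and length correction. Carbo+COM33 against Carbo gave -0.028 (SE 0.0977, adjusted p = 0.903), with overlapping groups.

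CYP27B1 (ENSG00000111012, chromosome 12, 57762334 to 57768986), the enzyme that makes active vitamin D, was the lowest of the 6 genes. It had 1.11, 1.06 and 1.12 FPKM in Carbo+COM33 libraries, 0.845, 1.09 and 1.15 FPKM in Carbo libraries, and 1.34, 1.21 and 1.58 FPKM in control libraries. All treated libraries were below all control libraries, but the values rest on only 43 to 79 counts per library. Of all genes, 22.5% had groups that do not overlap in Carbo against control and 28.7% in Carbo+COM33 against control.

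CYP27B1 had a log2 fold change of 0.12 (SE 0.197, adjusted p = 0.765) for Carbo+COM33 against Carbo and -0.30 (SE 0.192, adjusted p = 0.363) for Carbo+COM33 against control. In Carbo against control it was -0.42 (SE 0.193, adjusted p = 0.294), and in the paired fit -0.43 (SE 0.198, adjusted p = 0.139). None passed the test at this depth. Its annotation shares 516 bp with METTL1 on the same strand, and reads there cannot be assigned with certainty.

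CYP2R1 (ENSG00000186104, chromosome 11, 14877440 to 14892252), the enzyme of the first activating step in the liver, was the steadiest of the 6. It had 5.02, 5.27 and 4.86 FPKM in Carbo+COM33 libraries, 5.30, 5.35 and 5.06 FPKM in Carbo libraries, and 4.98, 4.87 and 5.95 FPKM in control libraries. The highest library was 1.23-fold above the lowest, and the groups overlapped. Its log2 fold changes were -0.025 (SE 0.106, adjusted p = 0.924), -0.034 (SE 0.106, adjusted p = 0.878) and -0.01 (SE 0.105, adjusted p = 0.971) for Carbo+COM33 against Carbo, Carbo+COM33 against control and Carbo against control.

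By mean FPKM over the 9 libraries the order was RXRB at 20.4, CYP24A1 at 15.7, RXRA at 5.78, CYP2R1 at 5.18, VDR at 3.54 and CYP27B1 at 1.17. The place of CYP24A1 depended on the library, since it was above RXRB in Carbo 2 and 3 and below CYP2R1 in every Carbo+COM33 library. RXRA and CYP2R1 overlapped and their order is not distinct. All VDR values were below all those of RXRA and CYP2R1, and all CYP27B1 values were below all those of VDR.

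The activating, degrading and transport machinery around these genes was examined in a list of 12 genes of vitamin D metabolism and transport, of which 7 were tested. PDIA3, a chaperone also described as a membrane-associated vitamin D binding protein, averaged 105 FPKM, and FDX1, the ferredoxin that passes electrons to mitochondrial P450s, 10.5 FPKM. None of the 7 was called in either comparison with Carbo+COM33, where 4.96% of all genes were called against Carbo and 6.29% against control. In the paired fit of Carbo against control, where 11.5% of all genes were called lower, 1 of the 7 was: POR, which passes electrons to microsomal P450s such as CYP2R1, at -0.34 (adjusted p = 0.00551), and at -0.15 (adjusted p = 0.197) with GC and length corrected. With that correction 1 of the 7 was called higher and 0 lower, where 5.63% and 4.7% of all genes were.

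The list medians were -0.085 for Carbo+COM33 against Carbo, 0.00048 for Carbo+COM33 against control and 0.077 for Carbo against control, beside -0.0064, -0.014 and 0.00094 over all genes. Among 7 mitochondrial P450 genes, 3 were tested, CYP24A1 and CYP27B1 included. The third, CYP27C1, averaged 2.95 FPKM and was not called, with a log2 fold change of -0.31 (adjusted p = 0.227) for Carbo+COM33 against Carbo.

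All 12 VDR coregulators of the list were tested, among them MED1, a Mediator subunit that binds VDR, at 46.4 FPKM. None was called in Carbo+COM33 against Carbo, where 4.96% of all genes were. In Carbo+COM33 against control, where 3.09% of all genes were called lower, 1 of the 12 was: SMARCA4, an ATPase of chromatin remodelling, at -0.31 (SE 0.0806, adjusted p = 0.0425). It had 212, 212 and 246 CPM in Carbo+COM33 libraries against 266, 289 and 274 CPM in control libraries. These groups did not overlap, as was found for 28.7% of all genes in that comparison. Its call was kept in 3 of 9 fits that left out a library, without Carbo 1, Carbo 3 or Carbo+COM33 3, and the adjusted p was 0.274 with GC and length corrected.

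In the paired fit of Carbo against control some coregulators were called in each direction, where 11.2% of all genes were called higher and 11.5% lower. The coactivator gene NCOA1 (0.22, adjusted p = 0.00651) and the corepressor gene NCOR1 (0.16, adjusted p = 0.0211) were higher in Carbo. SMARCA4 (-0.13, adjusted p = 0.0466) was among those lower. With GC and length corrected, none of the 12 was called, where 10.3% of all genes were. The list medians were -0.083, -0.012 and 0.048 for Carbo+COM33 against Carbo, Carbo+COM33 against control and Carbo against control.

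The list of 30 described VDR target genes other than CYP24A1 had 16 tested members, most of which were not called. In Carbo+COM33 against Carbo 2 were higher, SPP1 and CDKN1A, and 2 lower, IGFBP3 and SEMA3B, where 2.43% and 2.53% of all genes were called in those directions. In Carbo+COM33 against control 1 was higher, SPP1, and 2 lower, IGFBP3 and SEMA3B, with 3.2% and 3.09% of all genes. The medians of the 16 were 0.085 and 0.016. Groups that do not overlap, as given below for the genes called, were found for 23.7% of all genes against Carbo and 28.7% against control. The roles of these genes as targets are from other cell types, and several are also targets of other factors.

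SPP1 encodes osteopontin, a secreted matrix protein. It had 138, 126 and 113 CPM in Carbo+COM33 libraries, 62.5, 24.9 and 24.2 CPM in Carbo libraries, and 63.8, 33.2 and 30.9 CPM in control libraries. Every Carbo+COM33 library was above all others, and Carbo 1 and control 1 were the highest of their groups. The log2 fold change was 1.75 (SE 0.333, adjusted p = 0.0114) against Carbo and 1.56 (SE 0.331, adjusted p = 0.0195) against control. Against Carbo the call was lost without Carbo 2 (adjusted p = 0.0804) or Carbo+COM33 1 (0.0581). Against control it was lost without control 2 (0.115), control 3 (0.0895), Carbo+COM33 1 (0.0987) or Carbo+COM33 2 (0.0799).

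CDKN1A encodes the cyclin-dependent kinase inhibitor p21. It had 222, 232 and 257 CPM in Carbo+COM33 libraries, 162, 127 and 105 CPM in Carbo libraries, and 211, 157 and 146 CPM in control libraries. The Carbo+COM33 values were above all Carbo and all control values. The log2 fold change was 0.85 (SE 0.158, adjusted p = 0.0104) against Carbo, with the call lost without Carbo 2 (adjusted p = 0.0725). Against control it was 0.47 (SE 0.156, adjusted p = 0.0905).

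IGFBP3 encodes a carrier of insulin-like growth factors. It had 95.5, 80.5 and 78.0 CPM in Carbo+COM33 libraries, 130, 137 and 175 CPM in Carbo libraries, and 121, 119 and 125 CPM in control libraries. The Carbo+COM33 libraries lay below all others. The log2 fold change was -0.80 (SE 0.115, adjusted p = 0.00338) against Carbo, called whichever library was left out. Against control it was -0.52 (SE 0.115, adjusted p = 0.0226), with the call lost without control 2 (adjusted p = 0.0934), control 3 (0.0871) or Carbo+COM33 2 (0.106).

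SEMA3B encodes a secreted semaphorin. It had 16.8, 18.7 and 26.2 CPM in Carbo+COM33 libraries, 32.7, 49.7 and 45.3 CPM in Carbo libraries, and 32.7, 57.5 and 50.2 CPM in control libraries. The Carbo+COM33 libraries again lay below all others. The log2 fold change was -1.05 (SE 0.219, adjusted p = 0.0179) against Carbo and -1.18 (SE 0.219, adjusted p = 0.0114) against control. Against Carbo the call was lost without Carbo 2 (adjusted p = 0.106), Carbo 3 (0.0637), Carbo+COM33 1 (0.0937) or Carbo+COM33 2 (0.0848). Against control it was lost without control 2 (0.0744), control 3 (0.0519), Carbo+COM33 1 (0.0774) or Carbo+COM33 2 (0.0683).

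**Figure D4:**
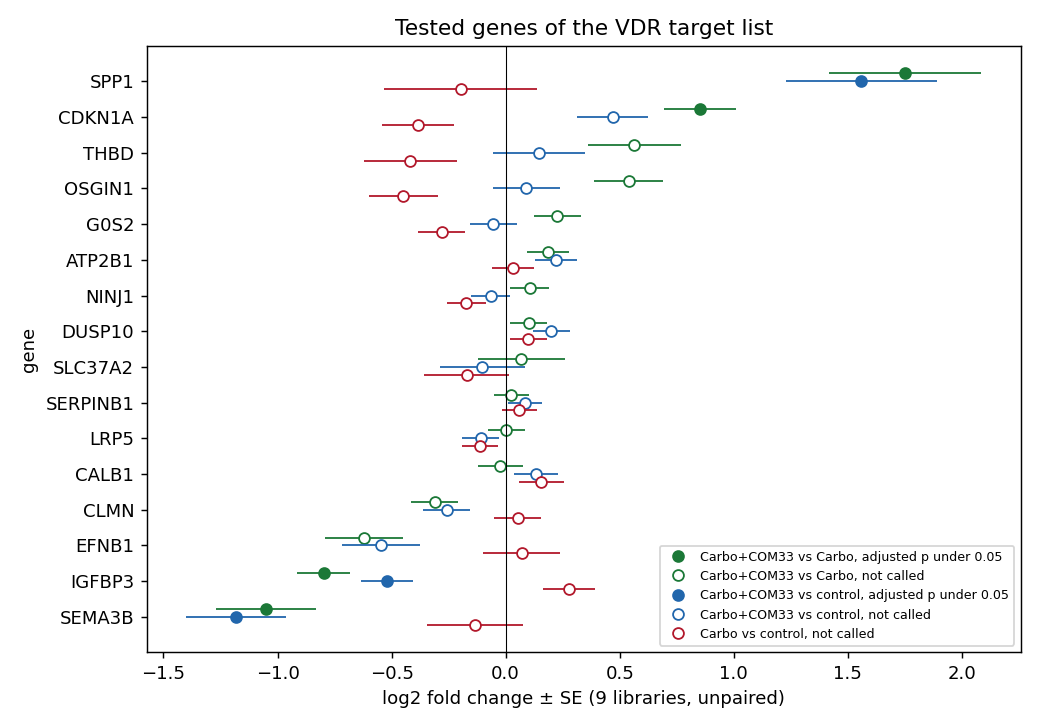
Log2 fold changes ± SE of the 16 tested genes of the VDR target list in the 3 comparisons, from the unpaired fit of 9 libraries, with filled points for genes called. SPP1 lies at 1.75 and 1.56 and SEMA3B at -1.05 and -1.18 in the comparisons of Carbo+COM33 with Carbo and with control.

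In Carbo against control none of the 16 was called unpaired. The paired fit called 2 higher and 5 lower in Carbo, with a list median of -0.12, where 11.2% and 11.5% of all genes were called in those directions. Higher were IGFBP3 (0.27, adjusted p = 0.00508) and CALB1 (0.16, adjusted p = 0.0248), a cytosolic calcium-binding protein gene. Lower were CDKN1A, SPP1, THBD, OSGIN1 and G0S2.

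CDKN1A was at -0.39 (adjusted p = 6.12e-05) and SPP1 at -0.24 (adjusted p = 0.0422). THBD, the gene of the anticoagulant receptor thrombomodulin, was at -0.45 (adjusted p = 0.000135), with 182, 119 and 91.4 CPM in Carbo libraries against 217, 161 and 146 CPM in control libraries. It was lower in Carbo in each pair. OSGIN1, an oxidative stress response gene, was at -0.46 (adjusted p = 0.000798), and G0S2, an inhibitor of lipolysis with 193 FPKM on average, at -0.28 (adjusted p = 0.000853).

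With GC and length corrected, 2 of the 16 were called higher and 5 lower, where 5.63% and 4.7% of all genes were. They were not the same set as without the correction, and genes called only with it are not reported here. IGFBP3 was at 0.33 (adjusted p = 0.000265), CDKN1A at -0.22 (adjusted p = 0.00288), THBD at -0.35 (adjusted p = 6.97e-05), SPP1 at -0.32 (adjusted p = 0.00845) and OSGIN1 at -0.24 (adjusted p = 0.0495). By contrast, G0S2 was at -0.085 (adjusted p = 0.343) and CALB1 at -0.033 (adjusted p = 0.757). When a pair was left out of the uncorrected paired fit, the adjusted p reached 0.334 for SPP1, 0.249 for CALB1 and 0.061 for IGFBP3.

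Retinoid X receptors also pair with other nuclear receptors, and 11 of 15 such partner genes were tested. NR1H2, a liver X receptor, averaged 14.8 FPKM and RARG, a retinoic acid receptor, 14.6 FPKM. In each comparison with Carbo+COM33, 1 partner was higher, PPARG, the adipogenic peroxisome proliferator receptor, and 1 lower, RARG. Of all genes, 2.43% were called higher and 2.53% lower against Carbo, and 3.2% and 3.09% against control.

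PPARG had 37.3, 41.2 and 35.4 CPM in Carbo+COM33 libraries, 28.8, 27.2 and 29.8 CPM in Carbo libraries, and 26.1, 29.8 and 29.8 CPM in control libraries. It was 0.41 (SE 0.0991, adjusted p = 0.0354) against Carbo and 0.41 (SE 0.0992, adjusted p = 0.032) against control. RARG had 48.7, 56.4 and 63.3 CPM in Carbo+COM33 libraries, 70.4, 99.9 and 84.4 CPM in Carbo libraries, and 73.6, 91.3 and 87.6 CPM in control libraries. It was -0.60 (SE 0.135, adjusted p = 0.026) against Carbo and -0.58 (SE 0.135, adjusted p = 0.0265) against control.

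Both genes had Carbo+COM33 libraries apart from all others, but their calls were not stable. Of all genes, 23.7% had groups that do not overlap against Carbo and 28.7% against control. PPARG was called in 3 of 9 fits that left out a library, in each comparison. Against Carbo those were without control 1, Carbo 1 or Carbo+COM33 3, with a highest adjusted p of 0.175 without Carbo 2. Against control they were without Carbo 1, Carbo 3 or Carbo+COM33 3, with a highest of 0.148 without Carbo+COM33 2. RARG was called in 5 of 9 fits in each comparison. Against Carbo it was lost without Carbo 2 (adjusted p = 0.15), Carbo 3 (0.0744), Carbo+COM33 1 (0.12) or Carbo+COM33 2 (0.0914). Against control it was lost without control 2 (0.135), control 3 (0.0992), Carbo+COM33 1 (0.14) or Carbo+COM33 2 (0.105).

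The paired fit of Carbo against control called 11.5% of all genes lower. In it NR1H2 was at -0.23 (adjusted p = 0.0123) and THRA, a thyroid hormone receptor, at -0.23 (adjusted p = 0.0218). With GC and length corrected they were at 0.0034 (adjusted p = 0.984) and -0.054 (adjusted p = 0.692). The 1 partner then called was RARG, at 0.20 (adjusted p = 0.0201), where 5.63% of all genes were called higher.

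Among markers of the line, ERBB2, the gene of the receptor HER2, was lower in Carbo+COM33 than in Carbo, at -0.57 (adjusted p = 0.00508), called whichever library was left out. Against control ERBB2 was also lower in Carbo+COM33 (-0.52, adjusted p = 0.00807). That call was lost without control 2 (adjusted p = 0.0598), Carbo+COM33 1 (0.061) or Carbo+COM33 2 (0.0547). Of all genes, 2.53% were called lower against Carbo and 3.09% against control. In the paired fit of Carbo against control, where 11.5% of all genes were called lower, PAX8 (-0.20, adjusted p = 0.00456) and KRT18 (-0.17, adjusted p = 0.0189) were lower in Carbo. Neither was called with GC and length corrected. ERBB2 was at 0.045 (adjusted p = 0.524) in the paired fit. With that correction it was called higher in Carbo (0.21, adjusted p = 0.00175), where 5.63% of all genes were. The part of these differences in the values of the vitamin D axis was not tested.

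Within 1 Mb of CYP24A1 on chromosome 20, 20 other genes are annotated and 5 were tested. PFDN4, a prefoldin subunit gene 33874 bp away, had 39.9, 36.9 and 25.1 CPM in Carbo+COM33 libraries, 30.5, 32.7 and 48.0 CPM in Carbo libraries, and 28.6, 28.7 and 31.1 CPM in control libraries. BCAS1, 82855 bp away, had 10.7, 11.2 and 12.8 CPM, then 10.2, 12.9 and 15.9 CPM, and 9.22, 12.9 and 12.9 CPM in the same order of groups. Its lowest Carbo and control libraries were the replicates 1, as for CYP24A1.

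None of the 5 neighbours was called in the unpaired fit of any comparison, where 4.96% of all genes were called for Carbo+COM33 against Carbo, 6.29% for Carbo+COM33 against control and 0.0% for Carbo against control. For Carbo+COM33 against Carbo PFDN4 was at -0.13 (adjusted p = 0.735), BCAS1 at -0.17 (adjusted p = 0.633) and ZNF217, a zinc finger gene 543542 bp away, at -0.26 (adjusted p = 0.125). In the paired fit of Carbo against control PFDN4 (0.31, adjusted p = 0.0219) and ZNF217 (0.20, adjusted p = 0.00977) were higher in Carbo, in a fit that called 22.7% of all genes. The ribosomal protein pseudogene RPL12P4, 900671 bp away, was at -1.43 (adjusted p = 0.0269), at no more than 2.29 CPM and with reads that parent copies may share. None of these 3 was called with GC and length corrected, where the adjusted p values were 0.174, 0.277 and 0.0507. The other neighbour, AL157838.1, 577586 bp away, was not called, at 0.19 (adjusted p = 0.573) in the paired fit.

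The library pattern of CYP24A1, low in Carbo+COM33 and in both replicates 1, was shared by many genes. Pearson's r of log2 CPM with CYP24A1 over the 9 libraries was computed for 10579 other genes whose mean log2 CPM exceeded 3. It was over 0.9 for 424 genes and under -0.9 for 403, together 7.82% of genes. The 9 libraries share their groups and replicate numbers, so r is a description of likeness and carries no p.

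Among the 10 genes of highest r were DCDC2 (0.993), PLK2 (0.993), IL18 (0.991), MYBL2 (0.991), TIAL1 (0.99), RANBP9 (0.99), FSTL1 (0.99), VCAN (0.989) and CYP1B1 (0.989). IL18, a cytokine gene, had 27.1, 33.3 and 35.1 CPM in Carbo+COM33 libraries, 35.9, 93.6 and 135 CPM in Carbo libraries, and 33.1, 66.9 and 74.2 CPM in control libraries. Its 9 libraries stood in the same order as those of CYP24A1, with a Spearman rho of 1.0, over a narrower range. CYP1B1, another cytochrome P450 gene, had 57.6, 65.2 and 60.1 CPM in Carbo+COM33 libraries, 71.2, 119 and 144 CPM in Carbo libraries, and 55.6, 93.8 and 104 CPM in control libraries.

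The 5 genes of lowest r were NRP1 (-0.997), LCN2 (-0.996), SYT7 (-0.993), TBRG1 (-0.989) and PITPNM3 (-0.987). LCN2, the gene of the iron-siderophore carrier lipocalin, had 226, 223 and 208 CPM in Carbo+COM33 libraries, 187, 84.2 and 56.1 CPM in Carbo libraries, and 211, 120 and 106 CPM in control libraries. It was high in the libraries in which CYP24A1 was low.

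Other genes of the axis were less alike to CYP24A1. VDR had an r of 0.403 over the 9 libraries and 0.767 for deviations from the group means. RXRA had -0.734 and -0.888, RXRB -0.0187 and -0.167, CYP27B1 0.14 and 0.706, and CYP2R1 0.16 and 0.105. Of the 8 VDR targets called in the unpaired or the uncorrected paired fit, r was negative for SPP1 (-0.9), CDKN1A (-0.937), THBD (-0.974), OSGIN1 (-0.698), G0S2 (-0.388) and CALB1 (-0.288), and positive for IGFBP3 (0.785) and SEMA3B (0.756). These values rest on the same libraries as the calls and are no separate evidence.

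**Figure D5:**
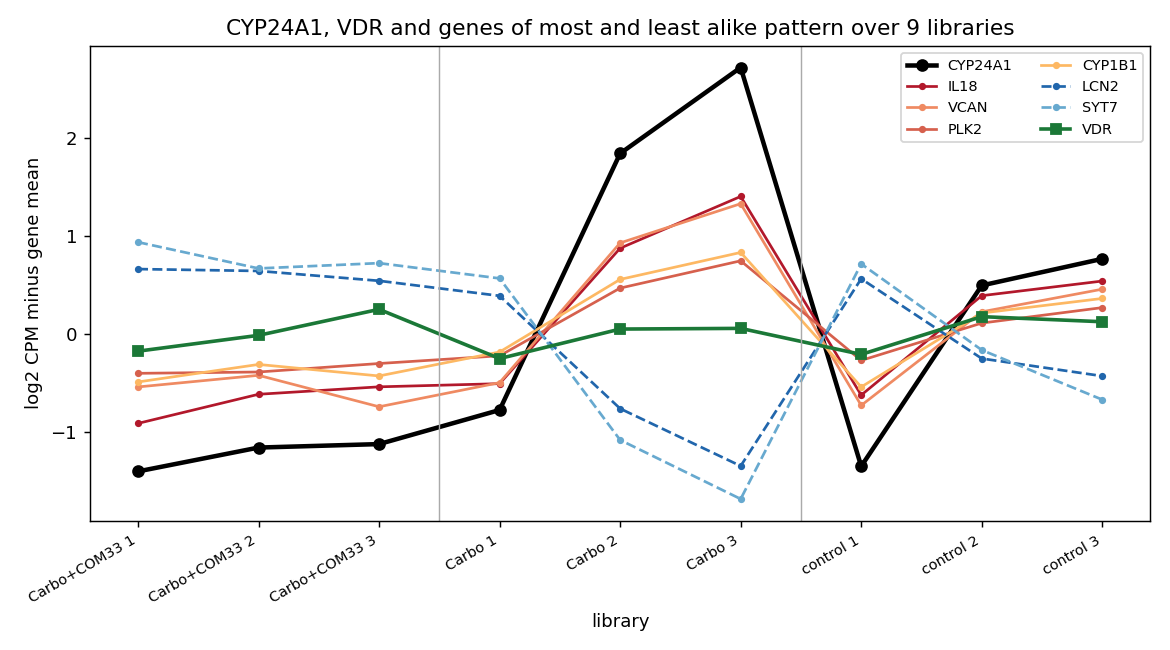
Log2 CPM minus the gene's own mean over the 9 libraries, for CYP24A1, VDR, 4 of the genes of highest r (IL18, VCAN, PLK2, CYP1B1) and 2 of lowest r (LCN2, SYT7, broken lines). Carbo 1 and control 1 lie near the Carbo+COM33 libraries for these genes, while VDR, with an r of 0.403, spans 1.42-fold.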

How the data were processed

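Per the labels' protocols, RNA was extracted with TRIzol, selected on poly-T beads, made into NEBNext Ultra libraries and sequenced as 150 bp paired reads. The authors deposited whole-number read counts and FPKM per gene; per the submitters' processing notes they used HISAT2, HTSeq 0.11.2, DESeq2 1.26.0 and GRCh38. The deposited FPKM equalled the count divided by exon-union length and library total for 32295 of 32378 genes (tolerance 1e-06), and was used for levels only. All genes matched GENCODE release 29.

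The counts were fitted with edgeR 4.0.16 (quasi-likelihood; R 4.3.3) over all 9 libraries, with a coefficient per group, filterByExpr (16450 genes) and TMM factors of 0.9821 to 1.013. Deviations from group means in same-numbered libraries correlated at 0.8245, 0.5652 and 0.7476 over 6607 genes for Carbo and control, all over 0.1, so the number was also fitted as a block there. Pairing comes from these correlations alone, since the labels do not explain the numbers. Alternatives included DESeq2 1.42.0.

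The 6 genes, the lists and the tests were chosen with earlier results of these data known. Named were the 6 genes, list genes called (unpaired, or paired for Carbo against control, at most 8 per list), the 2 genes of highest FPKM per list, tested genes within 1 Mb of CYP24A1, and the 10 most and 5 least alike genes. Some genes that this rule names are not reported here.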

Additional observations from a re-analysis of the deposited data

How the results depend on the processing

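For CYP24A1 the sign held in every alternative run. The number of genes called did not hold. For Carbo against control it was 0, and 928 with no filter on low counts and 115 by DESeq2. It was 3739 with the replicate block in 6 libraries, and 1699 with that block and the GC and length correction. With the replicate block over 9 libraries it was 0, with an adjusted p of 0.228 for RXRA and 0.202 for RXRB. Leaving out a pair of the blocked fit of 6 libraries gave 4338, 1623 and 2842 without replicates 1, 2 and 3, with fewer than its 2 residual degrees of freedom. The count ran from 0 to 1034 when a library was left out of the unpaired fit, 1034 being without Carbo 1. For Carbo+COM33 against Carbo it was 816, and 1876 with no filter, 1307 by DESeq2, 1277 with GC and length corrected, 1554 with the block over 9 libraries and 502 over 6; leaving out a number gave 1879, 280 and 1336 and leaving out a library 120 to 2721. For Carbo+COM33 against control it was 1035, and 1934 with no filter, 1625 with the block over 9 libraries and 1781 with block and correction; leaving out a number gave 310 to 5163 and leaving out a library 114 to 2208. For these 2 comparisons the numbers did not pair the samples (correlations of -0.01503, 0.1381 and -0.3885, and of 0.08509, 0.1011 and -0.42). The cause of these shifts was not tested.

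Of the 10 genes most like CYP24A1, 2 were among the first 10 by within-group deviations, 1 by Spearman's rho, and 7 to 9 when a library was left out.

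Some signs turned. With GC and length corrected, without and with the block, VDR was at 0.0181 and 0.0192 for Carbo against control and at 0.0575 and 0.0592 for Carbo+COM33 against control. Likewise RXRA was at 0.0397 and 0.0436 for Carbo+COM33 against control, and CYP2R1 at 0.0203 and 0.0217 for Carbo+COM33 against Carbo. For Carbo against control SMARCA4 was at 0.0402 and 0.0399, NR1H2 at 0.00344 and 0.00342, and CALB1 at -0.0307 and -0.0331. VDR in Carbo+COM33 against control was at 0.000375 with RLE size factors and 0.00484 by DESeq2.

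Leaving out a library turned signs too. For Carbo against control the range was -0.192 to 0.0104 for VDR, -0.0672 to 0.0842 for CYP2R1, -0.796 to 0.216 for SPP1 and -0.393 to 0.0109 for PAX8. Against Carbo, Carbo+COM33 ranged from -0.0462 to 0.173 for VDR, -0.151 to 0.0501 for RXRB, -0.00128 to 0.215 for CYP27B1 and -0.0496 to 0.00541 for CYP2R1. Against control it ranged from -0.131 to 0.0827 for VDR and -0.0916 to 0.0598 for CYP2R1. In blocked fits without a replicate number, Carbo+COM33 against Carbo gave -0.0246 for RXRA, 0.0587 and 0.018 for RXRB and -0.0076 for CYP27B1. Such fits gave 0.0816 for VDR and 0.0899 for CYP2R1 in Carbo+COM33 against control, and 0.107 for CYP2R1 in Carbo against control. Among single genes 800 of the alternative values kept their sign and side of the threshold, 82 passed it newly, 72 lost it and 41 turned sign, and 4 values of CYP24A1, which has no test, moved by over 1 SE. CYP27B1 rests on the fewest counts of the 6 genes.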

Other observations

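Other cytochrome P450 genes were looked at after the values of CYP24A1 were known; 21 besides CYP24A1 were tested. CYP1B1, which hydroxylates oestrogens and polycyclic hydrocarbons, was higher in Carbo than in control in the paired fit (0.39, adjusted p = 9.29e-05, edgeR), where 22.7% of all genes were called. For Carbo+COM33 against Carbo CYP1B1 was at -0.87 (adjusted p = 0.0554). CYP51A1, of sterol synthesis, was lower in Carbo in the paired fit (-1.85, adjusted p = 0.00312), but at no more than 2.08 CPM in any library.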
